A study of Mus musculus with 28 samples.

Results

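Carbonyl reductases and the closely related L-xylulose reductase are represented in the mouse by *Cbr1*, *Cbr2*, *Cbr3*, *Cbr4* and *Dcxr*, and the levels of these 5 genes were described here in ovaries with and without ionizing radiation (IR). The genes were taken by name, and all 5 of 5 were matched by symbol in the single-cell gene list of 31053 genes and by identifier in the bulk table, where all 5 were among the 26790 genes tested. The set was chosen because *Cbr2* and *Dcxr* rose in irradiated wild-type ovaries. Values of these genes in that comparison are therefore given as a description, with no test.

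Ovaries were collected 6 h after 0.5 Gy of whole-body IR or after sham handling from females that were wild-type or *Chek2*-/-. The sources used here name C57BL/6J mice but do not give the strain background of the *Chek2*-/- females, so that background and genotype cannot be told apart between them. The *Chek2*-/- animals carried the Chek2tm1b(EUCOMM)Hmgu allele, a germline deletion present in every cell of the body, so that these data hold no cell type-restricted loss of the kinase. CHEK2 is a checkpoint kinase that passes the DNA damage signal from ATM to p53 and, in oocytes, to TAp63. Bulk RNA was sequenced from the ovary pairs of one-week-old females in 24 libraries, with 6 libraries for each of the 4 groups: sham wild-type, irradiated wild-type, sham *Chek2*-/- and irradiated *Chek2*-/-. Single cells of the same 4 conditions were sequenced in 4 libraries, 1 per condition, each from the pooled ovaries of 4 females at 7 days of age. A bulk library is a mixture of all ovarian cells, so that fewer cells of a type and less RNA per cell cannot be told apart in it.

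All 5 genes encode short-chain dehydrogenases/reductases that use NADPH to reduce carbonyl groups. CBR1 is a cytosolic enzyme that reduces prostaglandins, quinones and lipid aldehydes, and CBR3 is its close relative encoded next to it. CBR2 is a mitochondrial carbonyl reductase best known from mouse lung, and its closest relative among these genes is DCXR, the dicarbonyl and L-xylulose reductase of the glucuronate pathway, which also reduces alpha-dicarbonyl compounds. CBR4 is a mitochondrial quinone reductase that also serves in mitochondrial fatty acid synthesis.

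In GRCm38.p6, *Dcxr* (ENSMUSG00000039450, chr11:120724546-120727284) and *Cbr2* (ENSMUSG00000025150, chr11:120729485-120732025) lie next to each other on the minus strand, 2201 bp apart. *Cbr1* (ENSMUSG00000051483, chr16:93607837-93610349) and *Cbr3* (ENSMUSG00000022947, chr16:93683219-93690991) lie 72870 bp apart on the plus strand, and *Cbr4* (ENSMUSG00000031641, chr8:61487734-61503500) stands alone on the plus strand. The RefSeq promoter windows of the neighboring pair, the genes for which the set was chosen, reach from 250 bases before the transcription start to 50 bases after it. They are shown in the direction of transcription, *Cbr2* from chr11:120731972-120732271 and *Dcxr* from chr11:120727235-120727534, both on the minus strand. Capitals mark stretches of 10 bases that differ at no more than 1 position from the repeat unit of the p53 response element.
Cbr2: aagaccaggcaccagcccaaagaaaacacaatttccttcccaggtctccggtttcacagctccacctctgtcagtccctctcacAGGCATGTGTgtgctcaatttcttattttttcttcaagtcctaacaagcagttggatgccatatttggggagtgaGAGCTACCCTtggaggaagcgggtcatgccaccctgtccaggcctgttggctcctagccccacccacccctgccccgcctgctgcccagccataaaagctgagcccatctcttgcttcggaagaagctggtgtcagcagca
Dcxr: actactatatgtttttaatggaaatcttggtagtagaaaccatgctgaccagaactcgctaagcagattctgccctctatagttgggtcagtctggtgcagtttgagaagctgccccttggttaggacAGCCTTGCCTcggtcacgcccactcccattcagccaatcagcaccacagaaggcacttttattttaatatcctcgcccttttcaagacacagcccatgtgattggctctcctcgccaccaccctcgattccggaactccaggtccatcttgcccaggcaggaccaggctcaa
Such stretches are common, since 70.0% of 32851 promoter windows of this length held at least 1 on either strand. The *Cbr2* window held 2 of them, AGGCATGTGT and GAGCTACCCT, and the *Dcxr* window held 1, AGCCTTGCCT. The windows of *Cbr1*, *Cbr3* and *Cbr4* held 1, 4 and 3. An exact match to the unit was found in none of the 5 windows and in 8.36% of all windows, and the antioxidant response element TGACNNNGC was found in none of the 5 and in 12.4% of all windows, both strands searched. GC content was 54.7% in the *Cbr2* window and 50.7% in the *Dcxr* window against a median of 52.7% over all windows.

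The 24 bulk libraries held 17825167 to 32605747 estimated counts. Values are given as CPM, counts scaled to a total of 1000000 per library after TMM scaling. *Chek2* itself followed the genotype labels, with a median of 22.5 CPM (19.8 to 24.6, n = 6) in sham wild-type and 3.72 CPM (2.88 to 4.44, n = 6) in sham *Chek2*-/- ovaries, a log2 difference of -2.58 (edgeR quasi-likelihood test, Benjamini-Hochberg adjusted p = 7.46e-15). Of the libraries, sham *Chek2*-/- replicate 6 and irradiated *Chek2*-/- replicate 6 stood apart in ovarian content, with summed oocyte markers at 2010 and 2260 CPM against at least 3430 CPM in the 12 wild-type libraries and summed oviduct and uterine epithelium markers at 169 and 142 CPM against at most 116 CPM elsewhere. Neutrophil markers summed to 1650 CPM in irradiated wild-type replicate 3 and to 1340 CPM in irradiated *Chek2*-/- replicate 2, against 10.2 CPM or less elsewhere. Erythroid markers summed to 10500 CPM in sham *Chek2*-/- replicate 5 and to 7080 CPM in irradiated *Chek2*-/- replicate 2, against at most 926 CPM elsewhere.

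*Cbr2* was low in sham wild-type ovaries and far higher in every irradiated wild-type library. The 6 sham wild-type libraries held 0.447, 0.0474, 0.305, 0.0931, 0.957 and 0.162 CPM of *Cbr2*. The 6 irradiated wild-type libraries held 14.3, 11.1, 7.29, 16.2, 8.14 and 10.4 CPM. The lowest irradiated library was thus above the highest sham library. The fitted log2 fold change was 5.01 (SE 0.69).

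*Dcxr*, the neighbor and relative of *Cbr2*, had a higher sham level and differed by less. Sham wild-type libraries held 6.08, 4.84, 5.7, 5.77, 6.19 and 6.03 CPM of *Dcxr*. Irradiated wild-type libraries held 18.3, 16.6, 16.1, 22.3, 14.6 and 13.6 CPM, and the groups again did not overlap. The log2 fold change was 1.55 (SE 0.12).

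*Cbr1* stood at nearly the same level in both groups. It held 38.2, 39.9, 40.4, 40.8, 37.7 and 38.3 CPM in sham wild-type libraries and 38.8, 40.8, 40.6, 38.4, 37.8 and 39.1 CPM in irradiated ones, and its log2 fold change was 0.00 (SE 0.04). *Cbr3* held 10.2 to 13 CPM in sham and 10.3 to 13.8 CPM in irradiated wild-type libraries (log2 fold change 0.05, SE 0.11). *Cbr4* held 6.64 to 8.77 and 7.29 to 8.84 CPM (log2 fold change 0.07, SE 0.08). The sham and irradiated wild-type libraries overlapped for each of these 3 genes. Over all genes tested, 1.68% had every irradiated wild-type library above every sham one, and 1.53% were called higher at an adjusted p of at most 0.05. Since the genes were chosen on this comparison, their 2 of 5 is not read against these shares. The neutrophil-rich irradiated replicate 3 held the lowest *Cbr2* value of its group, 7.29 CPM, and without it the log2 fold changes were 5.12 for *Cbr2* and 1.57 for *Dcxr*. Markers of oocytes in primordial follicles summed to a median of 180 CPM (146 to 207) in sham and 129 CPM (110 to 164) in irradiated wild-type ovaries, and to 221 and 222 CPM in sham and irradiated *Chek2*-/- ovaries. Their part in the values of the 5 genes was not tested.

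**Figure D1:**
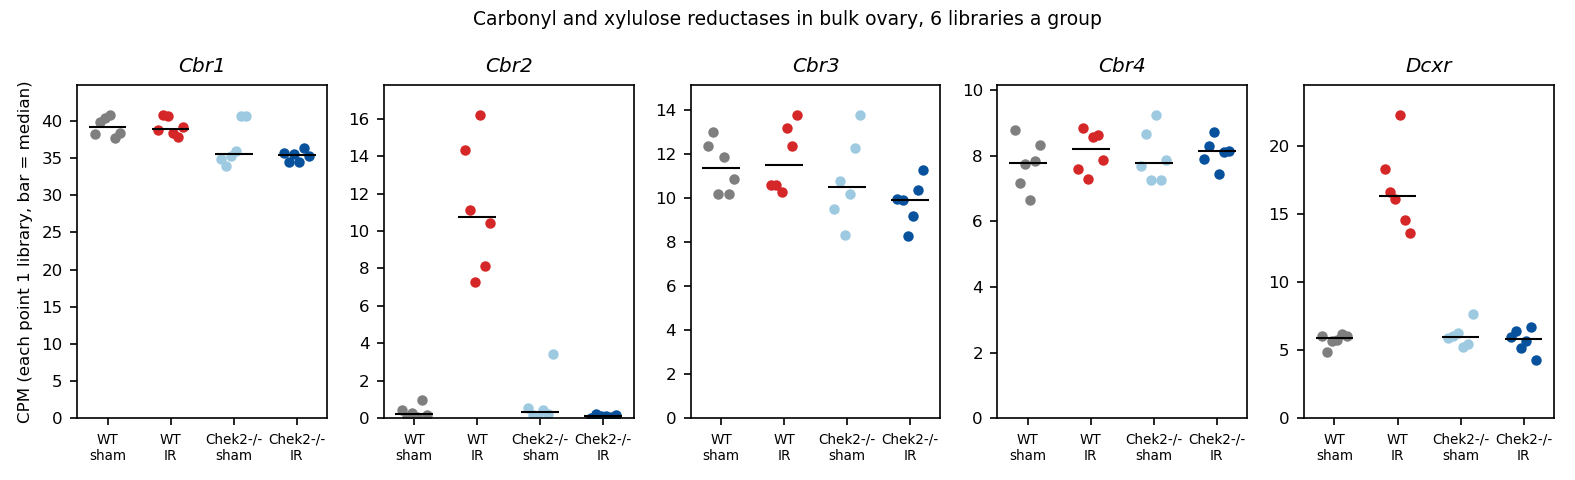
CPM of the 5 genes in each of the 24 bulk libraries by group, with each gene on its own axis from 0 and a bar at the median of the 6 libraries. *Cbr2* and *Dcxr* stand apart in irradiated wild-type ovaries, sham *Chek2*-/- replicate 6 holds the other high *Cbr2* value (3.46 CPM), and *Cbr1*, *Cbr3* and *Cbr4* overlap between treatments.

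Per kilobase of exon, the order of the 5 genes differed between sham and irradiated wild-type ovaries. In sham wild-type ovaries the medians were 15.3 CPM per kb for *Cbr1*, 9.09 for *Cbr3*, 5.16 for *Dcxr*, 1.24 for *Cbr4* and 0.176 for *Cbr2*, and no neighbors in this order overlapped over the 6 libraries. In irradiated wild-type ovaries *Dcxr* reached 14.3 CPM per kb (11.9 to 19.5) and overlapped *Cbr1* at 15.3 (14.8 to 16). *Cbr2* reached 8.1 CPM per kb (5.49 to 12.2) and overlapped *Cbr3* at 9.17 (8.21 to 11), while *Cbr4* was last at 1.31 (1.16 to 1.41). Reads of *Cbr2* could in part come from elsewhere, since 15.0% of its 31-base stretches also occur in the pseudogene *Gm11771*, which itself was given at most 1.07 counts in any library. For *Cbr1* this share was 7.83%, mostly with *Gm5678*, for *Cbr3* 2.31%, for *Cbr4* 0.699% and for *Dcxr* 0%.

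In *Chek2*-/- ovaries none of the 5 genes was called after irradiation. The stated reason for the choice of genes did not use this comparison. The paper had, however, already reported from these libraries that the rise of *Cbr2* and *Dcxr* was CHEK2-dependent, so the outcome for these genes was known beforehand. *Cbr2* stood at 0.553, 0.155, 0.0765, 0.444, 0.247 and 3.46 CPM in the sham libraries and at 0, 0.216, 0.149, 0.145, 0.0695 and 0.19 CPM in the irradiated ones. No irradiated *Chek2*-/- library reached the lowest irradiated wild-type value, and the 2 *Chek2*-/- groups overlapped. The fitted log2 fold change of -2.64 (SE 0.79, unadjusted p = 0.00267, adjusted p = 0.605, edgeR) rested largely on sham replicate 6 and was -1.19 without it.

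*Dcxr* in *Chek2*-/- ovaries overlapped between treatments, with 5.9, 6.06, 6.28, 5.25, 5.46 and 7.65 CPM in sham and 5.94, 6.43, 5.17, 5.67, 6.71 and 4.28 CPM in irradiated libraries. The log2 fold change was -0.10 (adjusted p = 1, edgeR). The log2 fold changes of *Cbr1*, *Cbr3* and *Cbr4* were -0.06, -0.13 and 0.02 (adjusted p = 1 for each, edgeR). The count of 0 of 5 stands against 0.0112% of genes called in this comparison, that is 3 of 26790, and 4.4% with an unadjusted p under 0.05. Of the 5, *Cbr2* alone had an unadjusted p under 0.05 (0.00267).

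The effect of irradiation in wild-type minus that in *Chek2*-/- ovaries was 7.66 (SE 1.03) on the log2 scale for *Cbr2* and 1.65 for *Dcxr*. Without sham *Chek2*-/- replicate 6 the *Cbr2* difference was 6.21. For *Cbr1*, *Cbr3* and *Cbr4* it was 0.06, 0.18 and 0.05. This difference holds the comparison on which the genes were chosen and is given with no test. Over all genes tested, 1.03% were called for it.

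**Figure D2:**
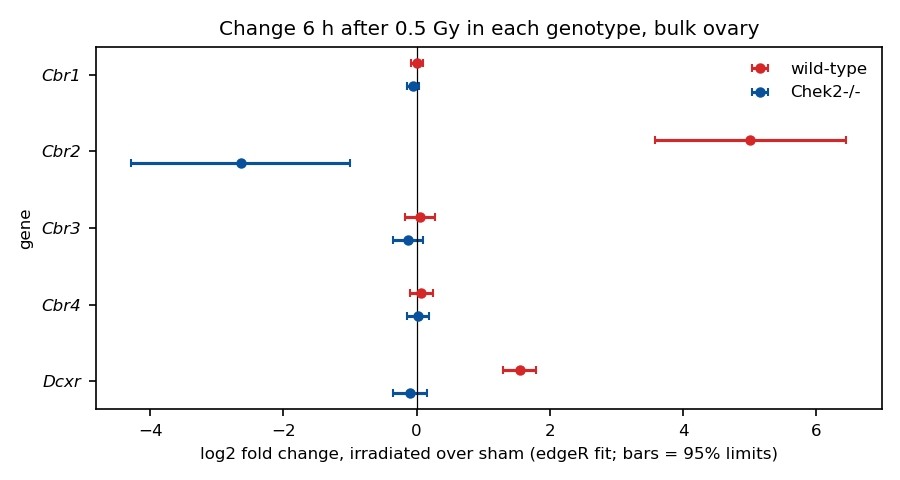
Log2 fold change of the 5 genes in bulk ovaries, irradiated over sham, with 95% limits, in each genotype. The wild-type values of *Cbr2* (5.01) and *Dcxr* (1.55) lie above 0, *Cbr2* in *Chek2*-/- ovaries (-2.64) was -1.19 without sham replicate 6, and the other values lie near 0.

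Without irradiation, no gene of the 5 was called between genotypes, a comparison that shares its sham wild-type libraries with the one used to choose the genes and in which 5.34% of genes were called. *Cbr1* had a median of 35.6 CPM (33.9 to 40.6) in *Chek2*-/- and 39.1 CPM (37.7 to 40.8) in wild-type ovaries, with a log2 difference of -0.09 (adjusted p = 0.24, edgeR). *Cbr3* differed by -0.08 (adjusted p = 0.744), *Cbr4* by 0.05 (adjusted p = 0.807) and *Dcxr* by 0.08 (adjusted p = 0.776). *Cbr2* differed by 1.24 (adjusted p = 0.312), and by -0.20 without sham *Chek2*-/- replicate 6.

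Genes of related pathways were followed as lists. Among carbonyl and quinone reductases of other families, such as the aldo-keto reductases, 20 of 22 genes were tested and none was called by edgeR in irradiated against sham wild-type ovaries, with a median log2 fold change of -0.03. Other short-chain dehydrogenases/reductases gave 0 called by edgeR and 1 by DESeq2 of 44 tested among 48 listed, with a median of -0.04. The glucuronate and xylulose pathway gave 0 of 13 with a median of -0.01, mitochondrial fatty acid synthesis and lipoylation 0 of 8 tested among 10 listed with a median of -0.10, and targets of the oxidative stress factor NRF2 gave 0 of 19 with a median of -0.03. The background was 2.41% of genes called and a median of -0.004. At an unadjusted p under 0.05 the counts in these lists were 1, 3, 0, 2 and 2, against 11.4% of all genes. DESeq2 called none in the other lists and limma-voom none in all 5.

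The list gene nearest to the threshold was *Hsd17b7*, a 3-ketosteroid reductase of cholesterol synthesis. It stood at a median of 24.2 CPM (20.2 to 26.3) in sham and 31 CPM (26.1 to 36.6) in irradiated wild-type ovaries. The estimate of 0.39 (SE 0.11) on the log2 scale missed the threshold (adjusted p = 0.0625, edgeR). It was chosen after its values were seen. For enzymes that act beside DCXR in the glucuronate pathway, likewise chosen afterwards, the log2 fold changes were 0.02 (SE 0.23) for the polyol dehydrogenase gene *Sord* and -0.01 (SE 0.15) for the xylulokinase gene *Xylb*. In *Chek2*-/- ovaries edgeR, DESeq2 and limma-voom called 0 genes of the 5 lists, and 2, 1, 1, 0 and 0 genes had an unadjusted p under 0.05, against 4.4% of all genes. For the difference between genotypes the 3 tools called 0 as well, with 0, 2, 0, 1 and 0 at an unadjusted p under 0.05, against 9.14% of all genes.

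Between sham genotypes, 5 list genes were called. In the order of the lists these were 1 of 20, 3 of 44, 1 of 13, 0 of 8 and 0 of 19 tested, against 5.34% of all genes, and nothing particular to the lists is read from them. *Akr1b3*, which encodes aldose reductase, was lower in *Chek2*-/- ovaries by a log2 difference of -0.27 (adjusted p = 0.0185, edgeR). *Miox*, the inositol oxygenase that feeds the glucuronate pathway, was lower by -0.46 (adjusted p = 0.0249, edgeR). Its medians were 54.5 CPM in wild-type and 40.8 CPM in *Chek2*-/- ovaries, with all 6 *Chek2*-/- libraries below the wild-type range. In single cells *Miox* was a leading gene of a group of oocytes. Growing oocyte markers summed to medians of 4490 and 3750 CPM in sham wild-type and *Chek2*-/- ovaries, and primordial ones to 180 and 221. Their part in the *Miox* value was not tested. *Hsd11b2*, which inactivates glucocorticoids, was lower by -0.58 (adjusted p = 0.0253), and *Wwox* by -0.29 (adjusted p = 0.0484). *Hsd17b14* was higher by 1.73 (adjusted p = 0.0446), at medians of 0.122 and 0.34 CPM.

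The genes that flank the members were measured as well. Of the 3 tested genes on each side of the *Dcxr* and *Cbr2* pair, none was called in irradiated wild-type ovaries by edgeR, where 2.41% of all genes were, and 2 had an unadjusted p under 0.05, against 11.4% of all genes. *Rac3*, which lies 577 bp from *Dcxr*, had a log2 fold change of 0.11 (adjusted p = 0.732, edgeR). *Rfng*, which encodes a glycosyltransferase that modifies Notch, had a log2 fold change of 0.28 (adjusted p = 0.0733), with 4 of 6 irradiated libraries above the sham range. *Hmga1b* had the largest estimate at 2.39 (adjusted p = 0.106), from medians of 0.0513 to 0.487 CPM, with 5 of 6 irradiated libraries above the sham range. Its *Chek2*-/- estimate was 1.18 (SE 0.69). *Rac3* was lower in sham *Chek2*-/- than in sham wild-type ovaries, by -0.37 (adjusted p = 0.0118).

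**Figure D3:**
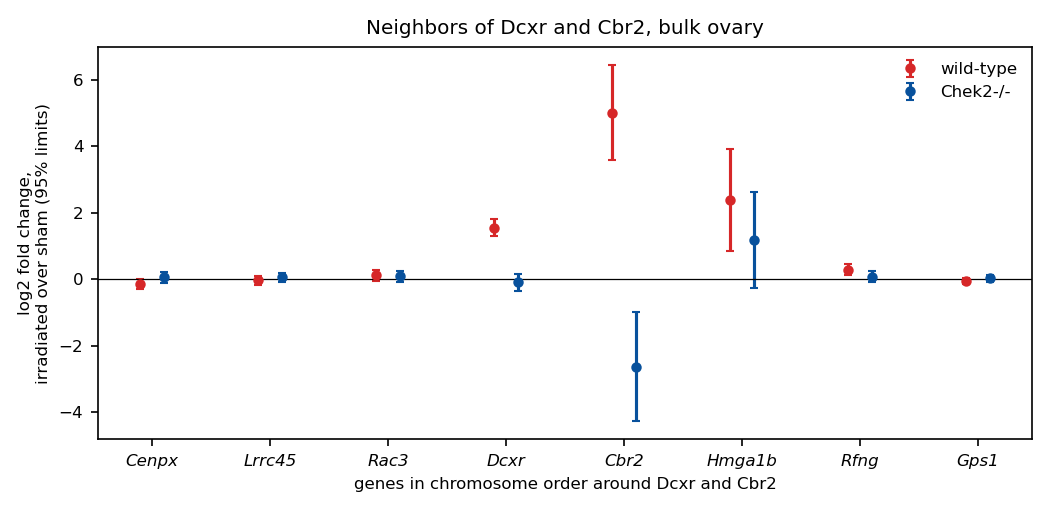
Log2 fold change with 95% limits, irradiated over sham, of *Dcxr*, *Cbr2* and the 3 tested genes on each side in chromosome order, in wild-type and *Chek2*-/- bulk ovaries. The wild-type values of *Dcxr* (1.55) and *Cbr2* (5.01) lie above 0, and those of *Cenpx*, *Lrrc45*, *Rac3* and *Gps1* lie near 0. *Rfng* stands at 0.28 (0.11 to 0.44) and *Hmga1b* at 2.39 (0.84 to 3.93), with unadjusted limits that also lie above 0.

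Of the 3 tested genes on each side of *Cbr1* and *Cbr3*, only *Morc3* was called in irradiated wild-type ovaries by edgeR, where 2.41% of all genes were. The nearer genes *Setd4* and *Dop1b*, at 3046 and 20916 bp, had log2 fold changes of -0.12 and 0.03 (adjusted p = 0.649 and 0.959, edgeR). *Morc3* encodes a nuclear body ATPase, and its start lies 141130 bp from the pair. *Morc3* stood at 55.4 to 61 CPM in sham and 65 to 75.2 CPM in irradiated wild-type libraries, without overlap, and its log2 fold change of 0.28 (SE 0.04) passed the test (adjusted p = 0.000235, edgeR). The *Chek2*-/- value was 0.01 (adjusted p = 1), and the difference between genotypes of 0.27 passed the test (adjusted p = 0.0273). None of the tested flanking genes of *Cbr4* was called by edgeR in irradiated wild-type ovaries, and 1 had an unadjusted p under 0.05, against the same shares of all genes.

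Over the 24 bulk libraries, the log2 levels most like *Cbr2* were those of *Fermt1*, *Pkp3* and *Scn4b* (Pearson's r of 0.93 each), *Coro2a* (0.92) and *Dcxr* (0.91), among 15955 genes with a mean of at least 1 CPM. For *Dcxr* they were *1700007K13Rik* (0.96) and *9930012K11Rik*, *Scn4b*, *Arhgef4* and *Ankrd65* (0.95 each). *9930012K11Rik* had a median of 4.64 CPM in sham and 17.6 CPM in irradiated wild-type ovaries, and 4.41 and 4.66 CPM in sham and irradiated *Chek2*-/- ovaries. *Arhgef4*, which encodes a guanine nucleotide exchange factor, had medians of 8.62, 23.6, 7.72 and 7.68 CPM in the same order. The points share the 4 groups, and these correlations are descriptions. *Cbr1* and *Cbr3* correlated at 0.58.

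In the single-cell libraries, 9277 sham wild-type, 9779 irradiated wild-type, 8697 sham *Chek2*-/- and 8771 irradiated *Chek2*-/- cells were used, with medians of 13908 to 17135 transcript molecules, counted as unique molecular identifiers (UMIs), per cell. Pairs of libraries shared 30 to 73 barcodes. Clusters were named from marker genes, and 4 of 17 stayed unnamed. With 1 library per condition there is no test, and all limits cover counting error only. Levels in a class are its summed UMIs scaled to 1000000 UMIs of that class, again written as CPM. Over all cells, the ratio of irradiated to sham wild-type levels was 42.8 (31.3 to 60.1) for *Cbr2* and 3.68 (3.51 to 3.86) for *Dcxr*. It was 1.07 for *Cbr1*, 1.35 (1.29 to 1.41) for *Cbr3* and 0.961 for *Cbr4*.

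Oocyte-like cells, in which 11 of 11 oocyte markers were detected, held most of the *Cbr2* transcripts of the irradiated wild-type library. The 171 oocyte-like cells of the irradiated wild-type library held 1453 *Cbr2* UMIs, that is 109 CPM. Only 13 UMIs were in the 196 sham wild-type oocyte-like cells (0.449 CPM), and 1 UMI each was in the 75 sham and the 141 irradiated *Chek2*-/- oocyte-like cells. The wild-type ratio was 242 (141 to 455). Of the 13 sham UMIs 10 came from 1 of the 3 cells that held any, a clumping that the counting limits do not cover. These cells made up 1.75% of the irradiated wild-type cells and 7.52% of their transcripts but 88.7% of their *Cbr2* UMIs.

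The oocyte-like cells of the irradiated wild-type library were shallower, at a median of 14888 UMIs against 181498 in sham wild-type, 159208 in sham *Chek2*-/- and 119441 in irradiated *Chek2*-/-. *Cbr2* was seen in 43.3% of them, against 1.53%, 1.33% and 0.709% in the other libraries in that order. In pericyte-like cells of the irradiated wild-type library it was seen in 0 of 144 cells, which allows a share of cells with a UMI of up to 2.08%, at a median of 7912 UMIs. Such a share does not limit how many cells express the gene. With each cell thinned to 3000 UMIs and shallower cells left out (7, 51, 2 and 21 cells in sham and irradiated wild-type and sham and irradiated *Chek2*-/-), *Cbr2* was seen in 29 of 120 irradiated wild-type oocyte-like cells, or 24.2% (exact binomial limits 16.8 to 32.8). It was then seen in 0 of 189 sham wild-type, 1 of 73 sham *Chek2*-/- and 0 of 120 irradiated *Chek2*-/- cells, where a count of 0 allows up to 1.59% and 2.5% of cells with a UMI. Among cells of at least 50000 UMIs, a limit set after seeing the data, the wild-type ratio was 237 (138 to 446). Of these deep cells, 90.2% (78.6 to 96.7) of 51 irradiated and 2.29% (0.475 to 6.55) of 131 sham wild-type ones held *Cbr2*.

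*Dcxr* was already present in sham oocyte-like cells, and its summed level was higher in the irradiated wild-type ones. It stood at 44.1 CPM (1277 UMIs) in sham and 128 (1707 UMIs) in irradiated wild-type oocyte-like cells, a ratio of 2.89 (2.69 to 3.11). In *Chek2*-/- oocyte-like cells it stood at 50.6 and 48.8 CPM, a ratio of 0.964 (0.868 to 1.07). The share of cells with a *Dcxr* UMI did not set the irradiated wild-type library apart, at 57.3% against 73.0% in sham wild-type, 89.3% in sham *Chek2*-/- and 70.2% in irradiated *Chek2*-/- cells. With cells thinned to 3000 UMIs the share was 19.2% (12.6 to 27.4) in irradiated and 7.94% (4.51 to 12.8) in sham wild-type, and 16.4% (8.79 to 27) and 18.3% (11.9 to 26.4) in sham and irradiated *Chek2*-/- cells. The limits of the irradiated wild-type cells overlap those of both *Chek2*-/- libraries widely and those of sham wild-type only from 12.6 to 12.8%. An overlap of limits is not a test, and the shares were not tested. *Cbr3*, whose bulk wild-type groups overlapped, stood at 5.01 CPM (145 UMIs) in sham and 20.3 (271 UMIs) in irradiated wild-type oocyte-like cells, a ratio of 4.04 (3.29 to 4.98). In *Chek2*-/- cells it was 2.02 (24 UMIs) and 3.58 (64 UMIs), a ratio of 1.77 (1.09 to 2.96).

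Markers of other cells were counted in the same oocyte-like cells, since *Cbr3* was also found in fibroblast-like cells. Fibroblast markers stood at 247 CPM in sham and 340 in irradiated wild-type oocyte-like cells, and granulosa cell markers at 425 and 172. Macrophage markers stood at 8.54 and 32.4 CPM, and macrophage-like cells of the sham wild-type library held 51.8 CPM of *Cbr2*, 104 of *Dcxr* and 24.5 of *Cbr3*. Among cells of at least 50000 UMIs, fibroblast markers stood at 199 and 274, macrophage markers at 8.16 and 33.5, and the *Cbr3* ratio was 4.14 (3.34 to 5.15). Their part in the values of *Cbr2*, *Dcxr* and *Cbr3* was not tested. *Cbr1* gave a wild-type ratio of 0.962 (0.893 to 1.03) and *Cbr4* one of 0.917 (0.776 to 1.08) in oocyte-like cells.

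**Figure D4:**
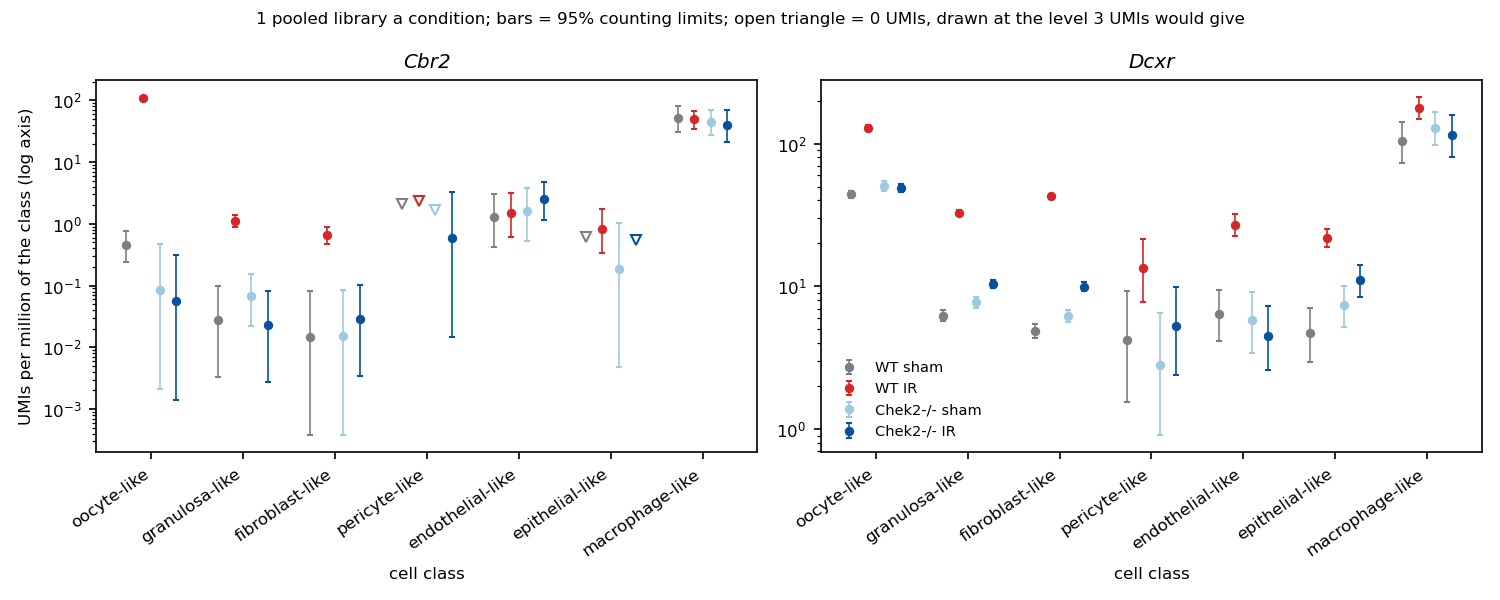
CPM (UMIs scaled to 1000000 UMIs of the class) of *Cbr2* and *Dcxr* by cell class in the 4 single-cell libraries, on log axes, with exact Poisson limits and, where no UMI was found, open triangles at the level that 3 UMIs would give. Among oocyte-like cells *Cbr2* is high in the irradiated wild-type library (109 CPM), and it is found in macrophage-like cells of all 4 libraries (40.2 to 51.8), and *Dcxr* is higher in the irradiated than in the sham wild-type library in oocyte-like, granulosa cell-like and fibroblast-like cells.

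Within the irradiated wild-type oocyte-like cells, most cells with *Cbr2* also held *Dcxr*, although such counts depend on the depth of a cell. Both were seen in 69 cells, *Cbr2* alone in 5, *Dcxr* alone in 29 and neither in 68. The 74 cells with *Cbr2* were far deeper, at a median of 116706 UMIs against 2963 in the others, and held 142 CPM of *Dcxr* against 42.3. Of them 13 held 1 *Cbr2* UMI, 15 held 2 to 4 and 46 held at least 5, up to 81 in a cell.

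Oocyte-like cells were grouped again, which gave 8 subclusters that were not named. The 5 genes and those responsive to irradiation, 649 in all, were left out of the genes used. In subcluster 7, made up of 57 irradiated wild-type cells and no others, *Cbr2* stood at 164 CPM, *Dcxr* at 180 and *Cbr3* at 24.2. In subcluster 0, which had the highest level of the growing-oocyte gene *Gdf9* (5130 CPM), *Cbr2* stood at 4.49 CPM (2.24 to 8.03) in 17 irradiated wild-type cells, and at 0 in the 37 sham wild-type cells, where a count of 0 allows up to 1.1 CPM. *Dcxr* in that subcluster was 17.5 CPM in irradiated and 9.88 in sham wild-type cells, a ratio of 1.78 (1.07 to 2.99). The wild-type *Dcxr* ratio was 2.69 (2.08 to 3.49) in subcluster 2, 1.7 (1.33 to 2.14) in subcluster 3 and 1.09 (0.609 to 1.85) in subcluster 6. Subclusters 1 and 5 gave 1.99 (0.726 to 4.36) and 2.91 (0.658 to 26.5), from 6 and 13 irradiated UMIs. Irradiated wild-type cells of subcluster 4 held no *Dcxr* UMI. Irradiated wild-type cells of subclusters 2, 3, 5 and 6 held 72.3, 35.5, 50.3 and 29.7 CPM of *Cbr2*, from 104, 43, 7 and 8 UMIs. In subclusters 5 and 6, 6 of the 7 and 5 of the 8 UMIs came from 1 cell each, and *Cbr2* was seen in 2 of 24 and 3 of 38 cells, so that these levels describe few cells. Subcluster 6 was led by the stromal genes *Col1a1*, *Col1a2*, *Cdh11* and *Dcn*, although it also held the oocyte gene *Sycp3* at 790 CPM, and it made up 38 of the 171 irradiated and 14 of the 196 sham wild-type cells. Without it, a choice made after seeing the data, the wild-type ratios in oocyte-like cells were 232 (135 to 437) for *Cbr2*, 2.97 (2.76 to 3.2) for *Dcxr* and 4.06 (3.28 to 5.03) for *Cbr3*, and the *Chek2*-/- ratio of *Cbr3* was 1.55 (0.937 to 2.63), with limits that include 1. Among oocyte-like cells of at least 50000 UMIs, the *Chek2*-/- ratio of *Cbr3* was 1.65 (1.01 to 2.77), with limits above 1. Subclusters 1 and 3, both led by *Fras1*, *Gatm* and *Igfbp2*, stayed in all of these ratios. They held 57 and 46 of the sham and 1 and 26 of the irradiated wild-type cells. *Igfbp2* was also a leading gene of a granulosa cell-like cluster, and the part of granulosa cell RNA in the ratios was not tested.

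**Figure D5:**
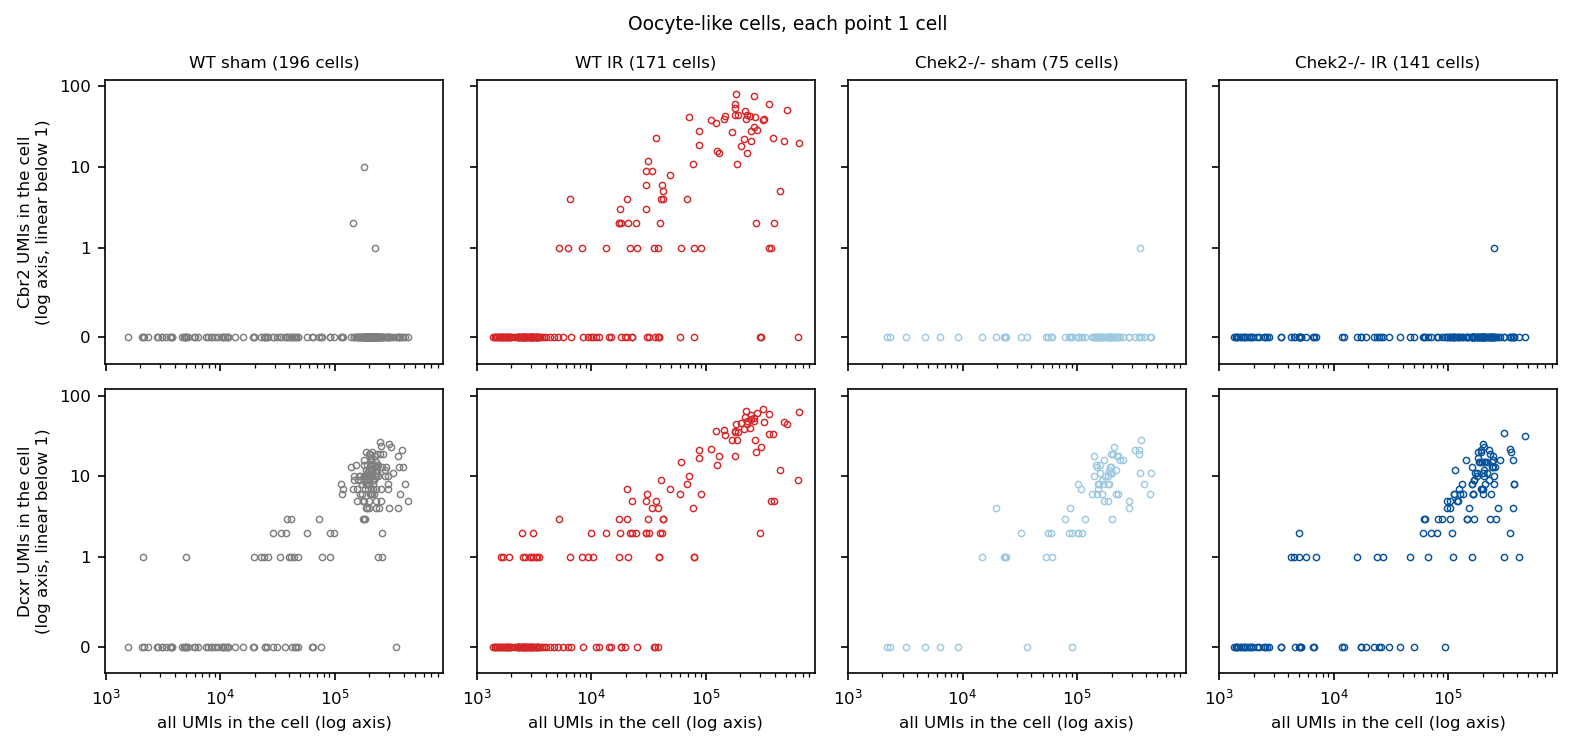
*Cbr2* and *Dcxr* UMIs in each oocyte-like cell against the total UMIs of the cell, on log axes that are linear below 1 UMI, for the 4 libraries. *Cbr2* is seen in 74 of 171 irradiated wild-type cells, mostly those of high total UMIs, and in 3, 1 and 1 cells of the other libraries, whereas *Dcxr* is seen in all 4.

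Outside the oocytes, *Dcxr* was higher in the irradiated than in the sham wild-type library in each of the 6 named somatic classes. In fibroblast-like cells it stood at 4.89 CPM in sham and 42.7 in irradiated wild-type cells, a ratio of 8.72 (7.78 to 9.81), and in granulosa cell-like cells at 6.25 and 32.7, a ratio of 5.23 (4.73 to 5.79). Endothelial cell-like cells gave a ratio of 4.20 (2.71 to 6.73), epithelial cell-like cells 4.68 (3.03 to 7.57), pericyte-like cells 3.16 (1.19 to 9.79) and macrophage-like cells 1.71 (1.18 to 2.53). The 4 granulosa cell-like clusters ranged from 4.29 to 5.82 and the 4 fibroblast-like clusters from 6.22 to 10.2.

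The irradiated *Chek2*-/- library also held more *Dcxr* than its sham library in the most numerous somatic classes. The ratio was 1.61 (1.42 to 1.82) in fibroblast-like and 1.35 (1.22 to 1.5) in granulosa cell-like cells. Epithelial cell-like cells gave 1.5 (0.988 to 2.3) and pericyte-like cells 1.87 (0.563 to 7.11). Endothelial cell-like cells gave 0.779 (0.372 to 1.62) and macrophage-like cells 0.894 (0.575 to 1.38), all with limits that include 1. With 1 library per condition the difference from the wild-type ratios was not tested. Over all cells the *Chek2*-/- ratio of *Dcxr* was 1.34 (1.26 to 1.43). The replicated bulk *Chek2*-/- libraries showed no such rise, with a log2 fold change of -0.10 (95% limits -0.35 to 0.16) and no call. The reason for this difference between single cells and bulk was not tested. The oocyte-like share of all *Dcxr* UMIs went from 58.4% of 2188 in sham to 22.1% of 7714 in irradiated wild-type cells, and the fibroblast-like share from 15.0% to 37.0%. The oocyte-like share of all transcripts went from 15.6% to 7.52% at the same time.

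*Cbr1*, *Cbr3* and *Cbr4* were found in all 7 named classes. *Cbr1* ranged from 45.8 CPM in endothelial cell-like to 81.4 in oocyte-like cells of the sham wild-type library, and *Cbr4* from 12.1 in endothelial cell-like to 28.9 in granulosa cell-like cells. *Cbr3* was spread less evenly, at 40.5 in fibroblast-like and 40.3 in epithelial cell-like cells, 8.78 in granulosa cell-like and 5.01 in oocyte-like cells. After irradiation of wild-type ovaries the *Cbr3* ratio was 1.15 (1.09 to 1.21) in fibroblast-like, 1.36 (1.15 to 1.62) in epithelial cell-like and 1.43 (1.3 to 1.58) in granulosa cell-like cells. The granulosa cell-like ratio was 1.13 without doublet removal. Its clusters gave 1.3, 1.02, 1.42 and 1.01, each below the class value. The cluster with the most *Cbr3* (16.6 CPM in sham and 23.6 in irradiated wild-type cells) held 676 of 2999 sham and 1115 of 3578 irradiated wild-type cells. The part of this shift in the class ratio was not tested. The *Cbr1* ratio was 1.12 (1.08 to 1.17) in fibroblast-like and 1.06 (1.02 to 1.1) in granulosa cell-like cells, and the *Cbr4* ratio 1.01 (0.924 to 1.1) and 0.911 (0.857 to 0.968).

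In somatic cells, the level of *Cbr2* was highest in macrophage-like cells and low in the other named classes. Granulosa cell-like cells held 2 *Cbr2* UMIs in sham and 88 in irradiated wild-type cells, and 5 and 2 in *Chek2*-/- cells. Fibroblast-like cells held 1 and 44 in wild-type and 1 and 2 in *Chek2*-/- cells. Endothelial cell-like cells held 5 and 7 in wild-type and 5 and 9 in *Chek2*-/- cells, that is 1.29, 1.52, 1.61 and 2.54 CPM. Oocyte markers were found in all of these classes. At the ratio of the irradiated wild-type oocyte-like cells, 0.505 *Cbr2* UMIs per 100 oocyte marker UMIs, the oocyte marker UMIs in these classes correspond to 23.2 *Cbr2* UMIs in granulosa cell-like and 18.8 in fibroblast-like cells. In irradiated wild-type epithelial cell-like cells 7 UMIs were found and 8.81 correspond to that ratio, in endothelial cell-like cells 7 and 1.18, and in macrophage-like cells 34 and 2.7. The ratio was taken as 1 value although it differed among oocyte-like cells, and the part of free oocyte RNA in the somatic values was not tested.

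Macrophage-like cells held *Cbr2* in every library, whatever the treatment. The 31, 54, 30 and 23 macrophage-like cells of the sham and irradiated wild-type and the sham and irradiated *Chek2*-/- libraries held 51.8, 49.1, 44.9 and 40.2 CPM. The ratio was 0.947 (0.525 to 1.76) in wild-type and 0.895 (0.409 to 1.89) in *Chek2*-/- cells. In the 3 libraries other than irradiated wild-type, these few cells held the largest part of all *Cbr2* UMIs, 47.5% of 40, 60.6% of 33 and 46.4% of 28. Macrophage markers summed to 172 and 263 CPM in the 2 neutrophil-rich bulk libraries, whose *Cbr2* values were 7.29 and 0.216 CPM. Whether macrophages or neutrophils gave these marker sums was not tested.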

How the data were processed

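Bulk libraries were made with the KAPA mRNA HyperPrep kit, and the authors trimmed reads with Trim Galore 0.6.5, quantified them with Salmon 1.3.0 and deposited estimated counts per gene, unscaled. The labels give mm10, and the paper names Ensembl transcripts. For single cells (10x Genomics), the authors ran Cell Ranger and deposited, for each gene and barcode, whole counts of UMIs. The bulk counts were rounded, genes with at least 10 counts over the 24 libraries were kept and all 4 groups were fitted together with TMM and the edgeR 4.0.16 quasi-likelihood test (R 4.3.3), with Benjamini-Hochberg adjustment and calls at 0.05. Nothing in the labels pairs libraries of different groups, and p-values measure the spread between these libraries.

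Cells needed at least 1000 genes, at most 20% mitochondrial and at most 50% ribosomal UMIs. Scrublet removed 4.02% to 5.47% of the cells as doublets. The rest were clustered with scanpy 1.11.5 (2000 variable genes, 30 components, Leiden resolution 0.5) and clusters named from marker lists. The 5 genes and those responsive to irradiation, 649 in all, were kept out of the variable genes. Limits of ratios, and of levels and shares with a count above 0, are exact (Poisson, Clopper-Pearson) at 95% and cover counting error only. For a count of 0 the limit is 3 counts throughout.

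The members and lists were chosen with earlier results of these data known. Genes named beside the members were up to 3 called genes per list, the nearest 3 tested genes on each side of a locus, the 5 genes most correlated with *Cbr2* and with *Dcxr*, and *Chek2*. *Hsd17b7*, *Sord* and *Xylb* fall outside this rule and were chosen after their values were seen. Identifiers for *Hsd17b8*, *Dhrsx* and *Htd2* were not matched. Promoter windows and gene positions came from RefSeq and the GRCm38.p6 annotation. Scripts were tested on simulated data. DESeq2 1.42.0, limma-voom (limma 3.58.1), other scalings, filters and left-out libraries were tried as alternatives.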

Additional observations from a re-analysis of the deposited data

Results flagged for a closer look

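*Cbr2* in sham *Chek2*-/- replicate 6, at 3.46 CPM, lay far above the other 5 libraries of its group (0.0765 to 0.553 CPM), and the oocyte and oviduct markers of that library stood apart as well. Irradiated *Chek2*-/- replicate 6, whose markers stood apart too, held 0.19 CPM of *Cbr2*. *Fermt1* (3.88 CPM), *Pkp3* (2.27), *Scn4b* (1.58) and *Coro2a* (5.69) were also highest in sham replicate 6 within its group. The part of tissue content in these values was not tested. *Dcxr* in sham wild-type replicate 2, at 4.84 CPM, lay below the other 5 libraries of its group (5.7 to 6.19 CPM), with a gap of 0.637 of the group's range just past the Dixon limit for 6 values. The *Cbr2* and *Dcxr* values were 2 flagged values in 20 groups of 6 libraries, and chance flags about 1 in 20 groups. The effect of irradiation on *Morc3* differed between genotypes by 0.27 on the log2 scale (adjusted p = 0.0273, edgeR), higher in 6 of 6 irradiated wild-type libraries than in any sham one.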

How the results depend on the processing

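In bulk ovaries *Cbr2* moved most of the 5 genes over left-out libraries. Its difference between genotypes ranged from 6.21 without sham *Chek2*-/- replicate 6 to 8.40 without sham wild-type replicate 5, its *Chek2*-/- log2 fold change from -2.88 to -1.19, its difference between sham genotypes, which was not called, from -0.20 (a turn of direction, without sham *Chek2*-/- replicate 6) to 1.98 and its wild-type log2 fold change from 4.80 to 5.76. *Dcxr* in wild-type ranged from 1.46 to 1.62. Counts of called genes depended more on the settings, and the cause was not tested. In irradiated against sham *Chek2*-/- ovaries DESeq2 called 14 genes (9 at 2-fold or more) and the fit of only the 12 libraries compared called 1 (0), with 0 to 1 at 2-fold over left-out libraries (0 without sham replicate 3 or irradiated replicate 4). Between sham genotypes DESeq2 called 2423 (127 at 2-fold) and the 12 libraries alone 792 (102), with 572 to 1794 (96 to 288) over left-out libraries and the lowest counts without sham wild-type replicate 4. Without sham wild-type replicate 2 or 3 the calls were 672 (108) and 719 (122), without sham *Chek2*-/- replicate 1 they were 807, and without sham *Chek2*-/- replicate 6 there were 129 at 2-fold. For the difference between genotypes DESeq2 called 458. The replicate numbers were not taken as pairs, since same-numbered libraries correlated at -0.05 to 0.40 in wild-type, 0.06 to 0.66 in *Chek2*-/- and 0.02 to 0.12 between sham genotypes. Of the 12 libraries per comparison 4, 7 and 4 correlated best with their own number, a hint from the data and not from the design. With the replicate number as a block, 661 genes were called in wild-type, 4 in *Chek2*-/-, 2025 between sham genotypes and 281 for the difference, and *Cbr2* had a log2 fold change of -2.26 in *Chek2*-/- ovaries (adjusted p = 1). In single cells 134 of 139 alternative ratios stayed within the counting limits, and 5 in granulosa cell-like cells did not. Without doublet removal these were 1.13 and 1.11 for *Cbr3* in wild-type and *Chek2*-/-, 0.973 for *Cbr4* in wild-type and 1.21 for *Dcxr* in *Chek2*-/-. In that setting the class itself differed, with 2085 in place of 2999 sham and 2236 in place of 3578 irradiated wild-type cells, and unnamed cells went from 473 to 1332 and from 391 to 1846. At a Leiden resolution of 1.0 *Cbr3* was 1.17 in wild-type. Single cells had 1 library per condition, and the few macrophage-like cells and shallow irradiated wild-type oocyte-like cells limit what depth can show.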
